A study of Homo sapiens with 8 samples.

Results

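The genes described here are nuclear genes for the machinery of mitochondrial protein synthesis, respiration and protein import that carried an N6-methyladenosine (m6A) peak in human osteosarcoma cells. They were taken by name from 4 deposited peak lists: every gene off the mitochondrial chromosome whose symbol begins with MRPL or MRPS (mitochondrial ribosomal proteins), NDUF (respiratory complex I), SDHA to SDHD (complex II), UQCR (complex III), COX and a digit (complex IV), ATP5 (ATP synthase), TIMM or TOMM (translocases of the inner and outer membrane). The rule used names only and no measured value. It found 114 of the 8758 genes with a peak in any list, and 796 of the 130622 deposited peaks. The mitochondrial localisation rests on these names, and no fractionation was part of the data.

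U2OS and 143B, the established human lines used, are both labelled as osteosarcoma lines and grew in DMEM with fetal bovine serum and antibiotics. Cells of each line carried a lentiviral hairpin, either the control shNC or shMETTL14, so every group is a transduced culture. METTL14 is the RNA-binding subunit of the METTL3-METTL14 methyltransferase that writes m6A, and the comparison the series was made for sets the peaks of control (NC) cells against those of shMETTL14 cells. Each group has 1 input library and 1 library enriched with an anti-m6A antibody, and 1 peak list, so no difference between lists has a replicate check and no test between conditions was made.

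Mitochondria make only a few core respiratory subunits from their own genome, on ribosomes whose proteins are all encoded in the nucleus. The remaining respiratory subunits, their assembly factors and the mitoribosome proteins are translated in the cytosol and pass the TOM and TIM translocases. The mRNAs of many such genes are short and abundant, and m6A in mRNA is known to gather near stop codons and in 3' UTRs.

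The lists held 32353 (U2OS NC), 29992 (U2OS shMETTL14), 33082 (143B NC) and 35195 (143B shMETTL14) peaks. A place is listed once for each isoform, so overlapping peaks of 1 gene were joined into sites, which gave 10937 to 13041 sites per list. A site is given the fold enrichment and p-value of its peak with the lowest p-value, and so is a locus, which joins overlapping sites of the 4 lists. Both are the authors' own values per peak and rank sites within a list only: a higher fold in 1 list than in another is not a measured change. The lists carry no read counts, so depth is unknown. METTL14 had 3 sites and 2 sites in U2OS with NC and shMETTL14, and 1 site and 2 sites in 143B, which does not measure its RNA or the knockdown. Of 9 osteoblast-lineage genes 2 or 3 had a peak in each list, RUNX2 in all 4. SP7, ALPL and BGLAP were without a peak in all 4, as were 3 blood and 3 epithelial markers.

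The mitochondrial genes carried few sites, mostly 1 per gene. U2OS NC held 177 peaks at 92 sites on 73 genes, and U2OS shMETTL14 held 160 peaks at 82 sites on 69 genes. In 143B the NC list held 224 peaks at 113 sites on 93 genes, and the shMETTL14 list 235 peaks at 124 sites on 97 genes. These were 0.778%, 0.750%, 0.912% and 0.951% of all sites of the lists. Thus the shMETTL14 list was the shorter of the pair in U2OS and the longer in 143B, as it was over all genes (11832 against 10937 sites in U2OS, 12386 against 13041 in 143B). A single site was present on 80.8%, 87.0%, 83.9% and 80.4% of the mitochondrial genes with a peak, in the order U2OS NC, U2OS shMETTL14, 143B NC and 143B shMETTL14. Over all genes with a peak the same shares were 54.3%, 55.5%, 53.7% and 52.3%.

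Which of these genes had a peak at all varied widely with their role. Of 212 protein-coding genes under these names in RefSeq, 116 had a peak in at least 1 list (54.7%), against 42.8% of all 20056 protein-coding genes. This count includes 4 genes that the lists hold under older names outside the naming rule (ATP5IF1 as ATPIF1, MRPL57 as MRP63, SDHAF3 as ACN9 and TIMM29 as C19orf52), which are not among the 114. The mitoribosome and the inner-membrane translocases were widely listed: 21 of 28 MRPS genes and 34 of 49 MRPL genes had a peak, and so did 11 of 15 TIMM genes. Complex I followed with 19 of 38 subunits and 5 of 9 assembly genes. At the other end stood the structural subunits of complex IV, with 3 of 16 genes, ATP synthase with 6 of 20, and complex II with 3 of 8. Of these 8, the listed ones were the assembly factors SDHAF1, SDHAF2 and SDHAF3, and no list held a peak on SDHA, SDHB, SDHC or SDHD, the subunits of succinate dehydrogenase itself. Likewise no list held a peak on ATP5F1A or ATP5F1B, the catalytic core of ATP synthase, or on UQCRC1, UQCRC2 or UQCRFS1, core subunits of complex III. The 3 genes counted as complex IV subunits with a peak, COX6A1, COX6B1 and COX6C, had it in 143B alone. NDUFA4, which RefSeq names COXFA4, had a peak in 143B shMETTL14 alone. It is outside the RefSeq counts of both complexes, and by its listed name its site is placed with complex I subunits below. A peak needs RNA as well as methylation, and RNA levels were not measured here, so an unmethylated transcript, a rare one and fewer cells holding it cannot be told apart. Many of these genes also have processed pseudogenes that could take or add reads, and how the authors counted such reads is not given in the sources used here.

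**Figure D1:**
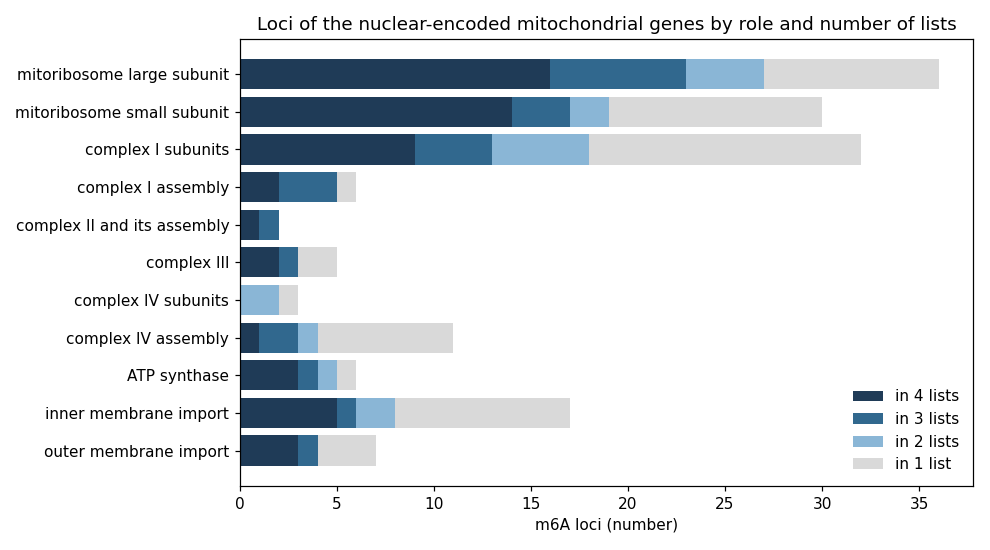
Number of m6A loci (sites of the 4 lists that overlap within a gene, joined; horizontal axis) of the nuclear-encoded mitochondrial genes by role (vertical axis), coloured by the number of lists with the locus. The mitoribosome large subunit has 36 loci, 16 of them in all 4 lists, whereas the complex IV subunits have 3 loci and none in all 4.

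The sites lay at the end of the message. Sites across the stop codon or within the 3' UTR made up 73 of 92 (79.3%, exact 95% interval 69.6 to 87.1) in U2OS NC and 67 of 82 (81.7%, 71.6 to 89.4) in U2OS shMETTL14. In 143B they were 95 of 113 (84.1%, 76.0 to 90.3) with NC and 105 of 124 (84.7%, 77.1 to 90.5) with shMETTL14. Over all genes the share was 45.9%, 45.9%, 48.6% and 50%, outside the interval in every list. All intervals here are Clopper-Pearson, cover counting error only and treat sites as independent. Coding-sequence sites were correspondingly few, 20.7%, 18.3%, 13.3% and 12.9%, against 45.9%, 46.4%, 42.9% and 41.8% over all genes. By the annotation of its best-called peak, the only mitochondrial site that reached from the 5' UTR into the coding sequence was that of MRPL51 in 143B NC, which ran on into the 3' UTR, and sites confined to the 5' UTR numbered 0, 0, 2 and 3.

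These sites also lay on short transcripts. The transcripts under the mitochondrial sites had median lengths of 1354, 1104, 1182 and 1405 nt in the 4 lists, against 3825, 3815, 3741 and 3733 nt over all sites. With transcripts of up to 1500 nt alone, 78.8%, 80.8%, 83.3% and 83.8% of mitochondrial sites lay at the stop codon or in the 3' UTR, against 44.1%, 43.1%, 52.9% and 51.2% of all sites on such transcripts. The share was above that of all genes in both comparisons. The part of length in it was not tested. A site spanned a median of 13.5% to 16% of its transcript for these genes, against 5.44% to 6.26% over all genes.

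**Figure D2:**
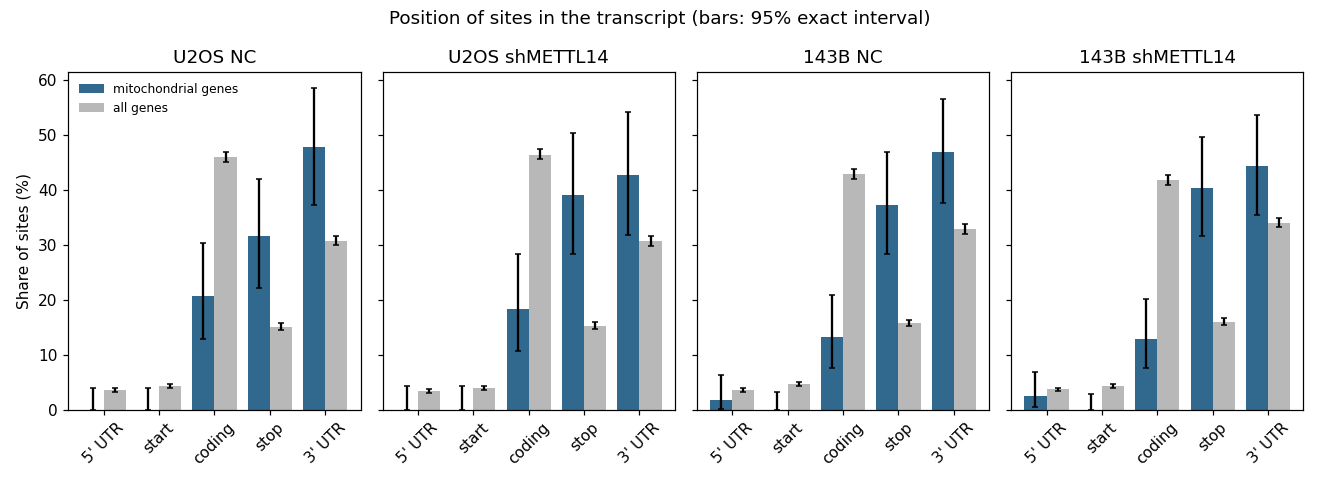
Share of sites (vertical axis, percent) in the 5' UTR, across the start codon, in the coding sequence, across the stop codon and in the 3' UTR (horizontal axis), per peak list, for the nuclear-encoded mitochondrial genes and for all genes; bars are exact 95% intervals. In all 4 lists the mitochondrial genes stand above all genes at the stop codon and in the 3' UTR and below them in the coding sequence.

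Fold enrichment was modest within each list. The median fold of the mitochondrial sites was 2.75, 2.60, 2.87 and 2.73, against 3.85, 3.86, 4.15 and 3.94 over all sites. Below their list's own median lay 73.9%, 69.5%, 77.9% and 71.0% of the mitochondrial sites. Coding-sequence sites were the lowest: 19 of 19 in U2OS NC and 15 of 15 in 143B NC were below the list median, with medians of 2.08 and 1.98. The p-values did not follow the fold. At or below the list's median p-value lay 54.3%, 52.4%, 60.2% and 58.9% of the mitochondrial sites, so these sites were at least as well called as the lists in general, at a lower enrichment.

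The high folds came from 3' UTRs. A fold of 10 or more was listed for 9, 8, 5 and 13 mitochondrial sites, of which 8, 8, 4 and 12 lay in a 3' UTR alone. Over all genes 549 of 1089, 746 of 1275, 486 of 1285 and 906 of 1606 such sites lay there. Sites with a fold of 10 or more were 9.78%, 9.76%, 4.42% and 10.5% of the mitochondrial sites, against 9.20%, 11.7%, 10.4% and 12.3% over all genes. Such values recur: the 9 sites in U2OS NC share 6 different values, and over all genes the 1089 sites of that list with a fold of 10 or more share 75. Every one of these mitochondrial sites had exactly the deposited fold of a site on another gene of its list, as did 98.8% or more of the mitochondrial sites with a fold under 10. Over all genes these shares were 97.2% to 97.5% and 98.9% to 99.1%. Why the values recur was not tested.

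The site with the lowest p-value of each list was on a small-subunit mitoribosome gene, MRPS5 in U2OS and MRPS26 in 143B. MRPS26, a component of the small subunit, had 1 site across its stop codon in all 4 lists (chromosome 20, 3027068 to 3028900, hg19, plus strand). Its fold was 5.31 in U2OS NC, 4.19 in U2OS shMETTL14, 5.71 in 143B NC and 4.75 in 143B shMETTL14 (the order kept below), with p-values of 2.5e-32, 1.3e-36, 2.5e-68 and 5.0e-85. MRPS5, another small-subunit protein, had a coding-sequence site over several exons in all 4 lists, and the sites of UQCRH, ATP5F1 and TIMM44 also lay in the coding sequence in every list. Its fold was 3.57, 4.42, 3.10 and 3.21, and its p-value was 6.3e-24 or lower in each list. These genes were chosen after their values were seen.

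MRPS16, MRPS27, MRPS10 and MRPS25 combined high rank with several sites. The 3' UTR locus of MRPS16 (chromosome 10, 75009349 to 75010277, minus strand) had a fold of 10.7 and 21.8 in U2OS NC and shMETTL14, and of 5.22 and 29.9 in 143B NC and shMETTL14. MRPS27, a pentatricopeptide-repeat protein of the small subunit, had 1 locus from the stop codon into the 3' UTR (chromosome 5, 71515862 to 71516823, minus strand) with folds of 14.1, 6.17, 4.56 and 7.76. Both loci were thus present in every list. MRPS10 had a pair of loci kept in all lists, across the stop codon at folds of 2.08, 1.66, 1.79 and 2.20, and farther into the 3' UTR at 9.63, 8.17, 2.72 and 9.42. In this gene the 3' UTR site outranked the stop-codon site in every list.

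MRPS25 shows a constant site beside changing ones. Its stop-codon site (chromosome 3, 15093730 to 15100941, minus strand) had folds of 2.76, 3.44, 2.48 and 2.94 and p-values of 4.1e-10, 2.5e-13, 1.2e-10 and 7.9e-17. The remaining 4 loci lay in the 3' UTR, none in all 4 lists. U2OS NC alone held the sites at 15092662 to 15092782 (fold 10.3) and 15090834 to 15090924 (fold 5.99), 143B shMETTL14 alone the site at 15092872 to 15092962 (fold 4.25), and the last was missing in U2OS NC and present in the other lists at folds of 4.90, 3.75 and 3.69. None of the variable sites had a p-value below 8.9e-05. An MRPS25 site of U2OS shMETTL14 overlaps NR2C2 on the other strand, so its assignment is uncertain.

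Among large-subunit genes, MRPL52 and MRPL30 had the highest folds. The 3' UTR locus of MRPL52 (chromosome 14, 23302689 to 23304186, plus strand) was present in all 4 lists, at folds of 12.8, 15.3, 7.83 and 12.2. In U2OS, however, the NC site (23303633 to 23303749) and the shMETTL14 site (23303925 to 23303983) did not overlap, and both lie within the 1 longer site that 143B shMETTL14 held there, at 23303532 to 23304186. So a lost and a gained site of U2OS belong to 1 locus. MRPL30 had 3' UTR folds of 16.7 in U2OS NC, 20.7 in U2OS shMETTL14 and 31.0 in 143B shMETTL14, and no site in 143B NC. The same peaks also stand under C2orf15, a gene on the same strand, so their assignment to MRPL30 is uncertain.

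Complex I was led by NDUFV3, a flavoprotein-arm subunit with a long alternative exon. It held 16 sites over the 4 lists at 6 loci, the most of any of these genes. A coding-sequence locus (chromosome 21, 44323796 to 44324123, plus strand) was in every list, at folds of 3.76, 3.27, 3.12 and 3.29. The locus around the stop codon (44324153 to 44329458) was also in every list, but its folds come from different places. Folds of 14.1 (U2OS NC) and 21.1 (143B shMETTL14) were across the stop codon, and 20.7 (U2OS shMETTL14) was in the 3' UTR. The 143B NC fold of 2.61 was of a coding-sequence site, as was a further U2OS shMETTL14 fold of 3.08. Of the other 4 loci none was in all lists, and the sites there that had no partner in their line had p-values from 6.5e-04 to 0.0022. NDUFB9, an accessory subunit, had 8 sites at 2 loci of different isoforms, with low folds of 1.34 to 2.59 and p-values down to 3.2e-38 in 143B shMETTL14. NDUFS1, the largest iron-sulfur subunit, kept a coding-sequence locus in all 4 lists (folds 2.10, 2.06, 1.78 and 2.17) and had 3 separate 61-nt 3' UTR sites in 143B, each in 1 list. These short sites had folds of 14.3 (NC), 6.65 and 4.16 (shMETTL14) and p-values of 7.1e-04, 0.0019 and 0.0042.

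Assembly factors of complexes I and IV had higher folds than the subunits of these complexes. The class medians were 3.48, 4.78, 3.48 and 3.66 for complex I assembly genes in the 4 lists, over 3 to 6 sites each, against 2.36, 2.24, 2.33 and 2.59 for complex I subunits. The last of these values includes the NDUFA4 site. For complex IV assembly genes they were 3.85, 5.45, 3.54 and 3.34, over 3 to 8 sites, against 1.85 and 2.49 for the complex IV subunits of 143B NC and shMETTL14, over 3 and 2 sites. COX20, a chaperone of the COX2 subunit, had a 3' UTR locus (chromosome 1, 245007821 to 245008150, plus strand) at folds of 6.74 in U2OS NC, 19.6 in U2OS shMETTL14 and 11.1 in 143B shMETTL14, and none there in 143B NC. COX18, which inserts COX2 into the inner membrane, had sites in 143B only, at a fold of 23.5 with NC, and at 13.3 and 19.9 with shMETTL14. COX17, a copper chaperone of the same complex, held a single site at the stop codon or just inside the 3' UTR in each list, at folds of 4.28, 5.45, 4.24 and 3.37. It was the only complex IV gene with a locus in all 4 lists, and is named for that.

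Complex III and ATP synthase contributed few loci, of which 2 of 5 and 3 of 6 were in all 4 lists. UQCRB, a small complex III subunit chosen after its values were seen, had a stop-codon locus at folds of 2.19, 2.14, 2.48 and 2.24 and p-values of 1.3e-19 or lower in each list. The highest-ranked of all these genes by mean percentile of fold within a list (97.3) was ATP5S, an ATP synthase coupling factor that RefSeq names DMAC2L. Its 3' UTR locus (chromosome 14, 50792527 to 50792944, plus strand) had folds of 19.3, 14.2, 19.6 and 35.5. The p-values there were 6.3e-06, 5.2e-04, 3.2e-05 and 7.4e-10, so a top fold rank went with a middling p-value in 3 of the lists.

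Among the translocases, TOMM40L, a paralog of the outer-membrane pore TOMM40, had a 3' UTR site in all 4 lists at folds of 4.49, 21.8, 3.68 and 6.16. It overlaps NR1I3 on the other strand, and whether counting used strand is not given in the sources used here. TIMM10B, a small chaperone of the intermembrane space, kept 1 3' UTR locus in all lists (folds 3.69, 3.99, 2.73 and 2.10) and had 3 more 3' UTR sites in 143B shMETTL14, at folds of 14.4, 13.3 and 1.88. TIMM22, the pore of the carrier translocase, had no site in U2OS NC, 1 in U2OS shMETTL14 (fold 6.17), 1 in 143B NC (3.59) and 3 in 143B shMETTL14 (3.39, 3.17 and 1.88). The U2OS site lay at none of the 143B positions. A TIMM22 site of 143B shMETTL14 overlaps ABR on the other strand, so its assignment is uncertain.

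**Figure D3:**
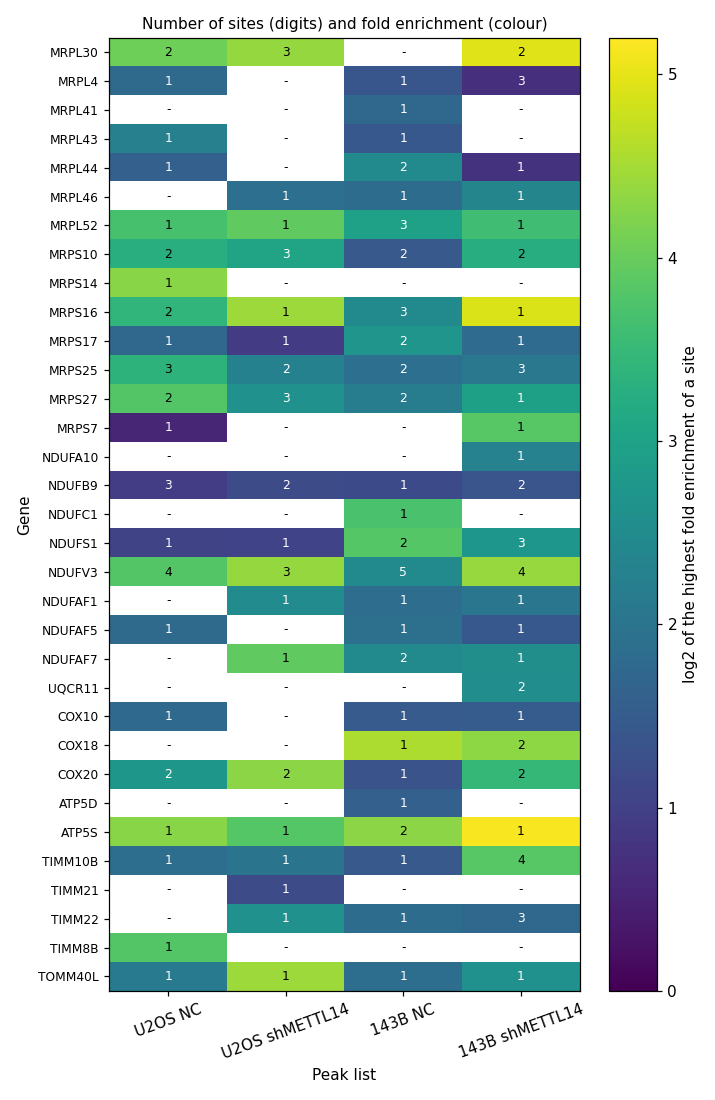
Number of sites (digits; a dash marks none) and log2 of the highest fold enrichment of a site (colour) for 33 of the genes (vertical axis) in the 4 peak lists (horizontal axis). Rows such as NDUFV3, MRPS16 and ATP5S are filled in every list, while MRPL43 has sites in both NC lists and in neither shMETTL14 list.

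A site was counted as lost when it stood in the NC list and no shMETTL14 peak of that line shared 1 bp or more of its spliced length and its strand, and as gained in the converse case. These terms refer to listing alone, as methylation change was not measured. In U2OS, 25 of 92 mitochondrial sites were lost (27.2%, interval 18.4 to 37.4), against a background of 31.1% of all sites, and 14 of 82 were gained (17.1%, 9.66 to 27.0), against 24.9%. In 143B, 18 of 113 were lost (15.9%, 9.72 to 24.0), against 24.5%, and 33 of 124 were gained (26.6%, 19.1 to 35.3), against 32.0%. The 4 shares were thus near or under the background, and the interval of the 143B losses ended just below it. That no longer held when peaks within 100 bp counted as partners (background 21.5%), or without genes that share a place with another gene (interval to 24.6%). With 50% of each peak required to overlap, the lost 143B share was 31.0% (all genes 43.6%) and the gained U2OS share 30.5% (all genes 40.8%). With both lists cut to peaks at or above their median fold, the lost and gained 143B shares were 38.9% and 47.4%. These were above the 37.7% and 42.9% of all genes. A partner under the cut no longer counted, so a site called there may have a partner in the full list. The order against the background thus depended on the peaks used.

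Counted as genes, the shares were above the background in U2OS and below it in 143B, with the background inside each interval. In U2OS 15 of 73 genes lost all their peaks (20.5%, background 16.9%) and 11 of 69 were new with shMETTL14 (15.9%, background 12.4%). In 143B 10 of 93 genes lost all their peaks (10.8%, interval 5.28 to 18.9, background 11.8%). New there were 14 of 97 (14.4%, interval 8.12 to 23.0, background 15.5%). Over deposited peaks, 47 of 177 were lost in U2OS (26.6%, background 26.9%) and 29 of 160 gained (18.1%, background 20.9%), and in 143B 27 of 224 were lost (12.1%, interval 8.10 to 17.1, background 20.7%) and 47 of 235 gained (20%, interval 15.1 to 25.7, background 27.3%). Peaks of 1 place on several isoforms are not independent, so the intervals over deposited peaks are too narrow. Of the lost sites, 15 of 25 in U2OS and 10 of 18 in 143B were on genes with no site in the other list of the line, as were 11 of 14 and 17 of 33 of the gained sites. The same shares over all genes were not computed. A single site was more usual on these genes (80.4% to 87.0%, all genes 52.3% to 55.5%). The bearing of this on the gene counts was not tested.

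Lost and gained sites were mostly the weakly called ones. The median p-value of lost sites was 6.5e-04 in U2OS, against 7.8e-08 for sites with a partner, and 3.0e-04 against 1.1e-07 in 143B. Lost sites were also narrow, with a median width of 91.0 nt in both lines, against 206 and 207 nt for sites with a partner. Gained sites had median p-values of 2.9e-04 (U2OS) and 3.5e-04 (143B), against 3.6e-07 and 1.0e-11. Among sites with a p-value at or below their list's median, 2 of 50 were lost (4%, all genes 7.99%) and 0 of 43 gained (upper limit 8.22%, all genes 5.36%) in U2OS. The same counts in 143B were 5 of 68 (7.35%, all genes 5.92%) and 6 of 73 (8.22%, all genes 9.09%). Above the median p-value, 54.8% and 35.9% were lost and gained in U2OS and 28.9% and 52.9% in 143B, against 54.2%, 44.4%, 43.3% and 54.8% over all genes.

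**Figure D4:**
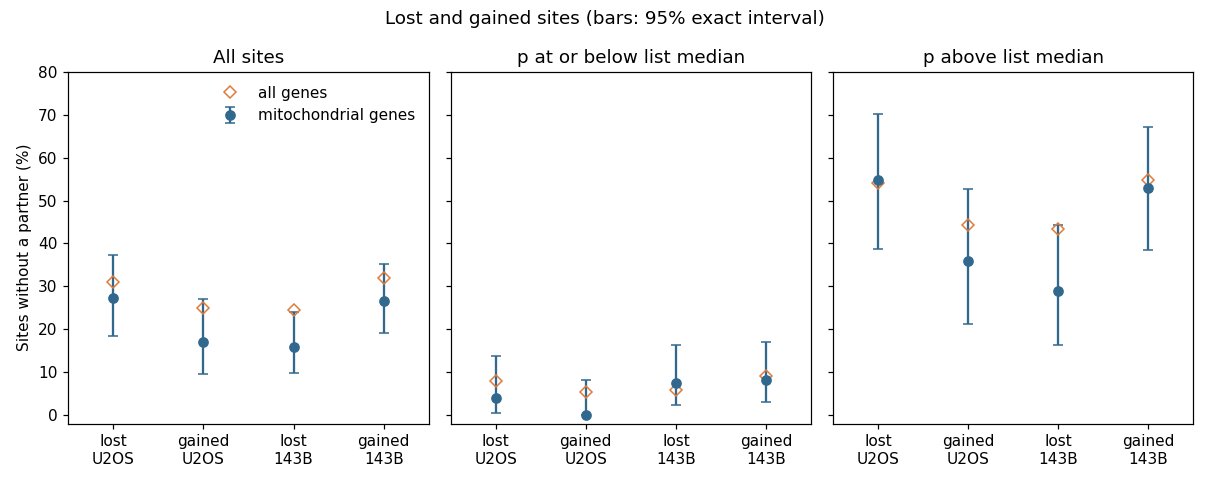
Share of sites without a partner in the other list of the line (vertical axis, percent) for lost and gained sites per line (horizontal axis): all sites, sites with a p-value at or below the list median, and sites above it. Filled points with exact 95% intervals are the nuclear-encoded mitochondrial genes and open diamonds all genes; the well-called sites lie at 0 to 8.22% and the weakly called ones at 28.9% to 54.8%.

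**Figure D5:**
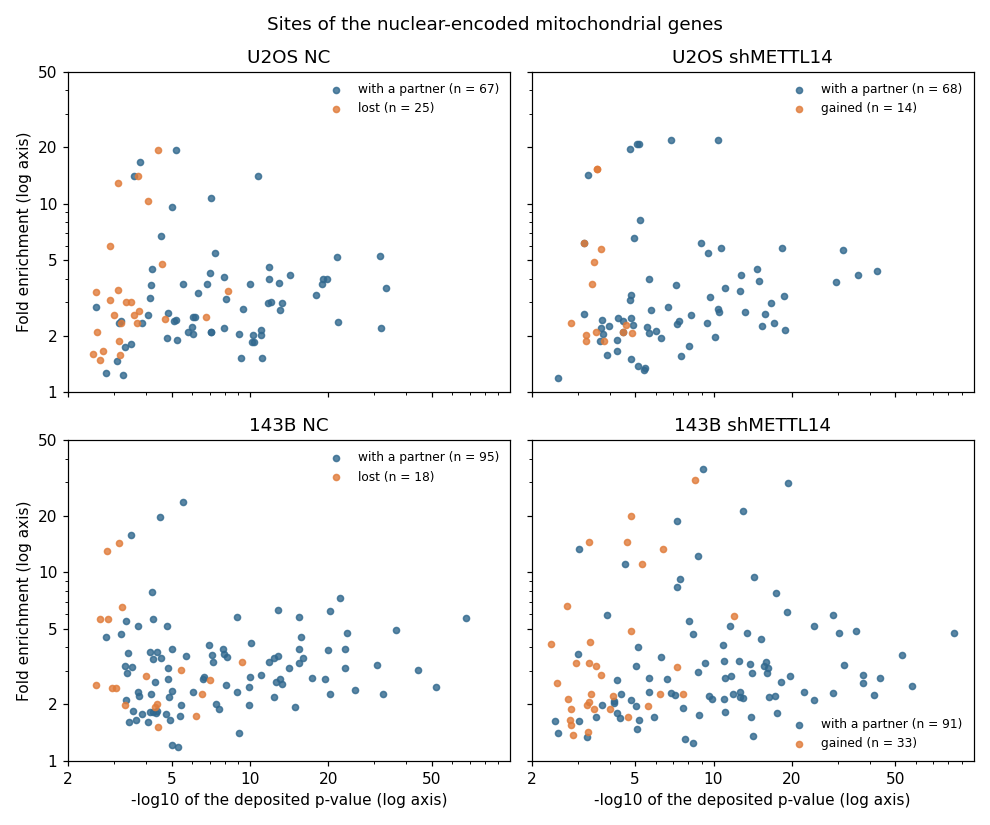
Fold enrichment (vertical log axis) against -log10 of the deposited p-value (horizontal log axis) of every site of the nuclear-encoded mitochondrial genes, 1 panel per list. Sites with a partner in the other list of the line are blue and lost or gained sites orange; the orange points gather at the left, at high p-values, across the range of folds.

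Position moved with these calls. Stop-codon sites were lost in 2 of 29 cases in U2OS and 4 of 42 in 143B (all genes 12.7% and 9.82%), and gained in 1 of 32 and 5 of 50 (all genes 10.1% and 12.7%). Sites in the 3' UTR alone were lost in 17 of 44 cases and 11 of 53 (38.6% and 20.8%, all genes 38.9% and 31.2%). They were gained in 9 of 35 and 21 of 55 (25.7% and 38.2%, all genes 32.0% and 42.6%). The 3' UTR sites supplied most of the lost and gained sites in both lines, and all genes showed the same order of the 2 positions.

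The few well-called differences can be named, and were chosen after their values were seen. In U2OS the 2 lost sites of this kind were on MRPL4, a large-subunit protein, in the coding sequence (chromosome 19, 10368929 to 10369308, fold 3.46, p-value 5.4e-09), and on UQCR10, a small complex III subunit (chromosome 22, 30165841 to 30165989, fold 2.51, p-value 1.7e-07). Both genes had sites in the 143B lists with NC and with shMETTL14. The 5 in 143B were on MRPL41 (fold 3.34, p-value 4.9e-10), MRPL43 (2.68, 9.3e-08), NDUFB7 (2.26, 3.0e-07), COX6A1 (1.72, 6.2e-07) and ATP5D (3.02, 3.7e-06), which encode ribosomal proteins, a complex I and a complex IV subunit and the delta subunit of ATP synthase. All but MRPL43 were listed in 143B NC alone.

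The 6 well-called gained sites of 143B were led by UQCR11, a small complex III subunit, with a 3' UTR site (chromosome 19, 1597171 to 1597350, minus strand) at a fold of 5.86 and a p-value of 1.0e-12. MRPL30 followed at a fold of 31.0 and a p-value of 3.4e-09. The others were SDHAF2 (fold 2.27), which attaches the flavin of succinate dehydrogenase, MRPL1 (3.16), TIMM10B (13.3) and TIMM23 (2.27), the channel of the presequence translocase. TIMM23 has a near-identical copy, TIMM23B, so its site is uncertain. UQCR11, MRPL1 and TIMM23 had no peak in any other list.

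High folds alone did not mark well-called differences. The lost U2OS sites with the highest folds were those of MRPS14 (19.3), TIMM8B (14.1), MRPL52 (12.8) and MRPS25 (10.3), and their p-values ran from 3.6e-05 to 7.6e-04. The TIMM8B site, its only one in any list, overlaps C11orf57 on the other strand, so its assignment is uncertain. Gained in U2OS at the top were MRPL52 and NDUFAF7, a methyltransferase that acts on complex I, both at 15.3, then TIMM22 (6.17) and NDUFAF1, a complex I assembly factor (5.72). NDUFAF1 and NDUFAF7 had sites at the same places in both 143B lists, with folds of 3.65 and 4.14 and of 5.65 and 5.91, so only U2OS NC lacked them. In 143B, NDUFS1 (14.3), NDUFC1 (13), MRPS17 (6.52), MRPL44 (5.65) and NDUFV3 (5.65) led the lost sites, with p-values of 5.9e-04 to 0.0022. Gained 143B sites after MRPL30 were those of COX18 (19.9), TIMM10B (14.4), MRPS7 (14.4) and COX20 (11.1). MRPS7 was lost in U2OS at a coding-sequence site with a fold of 1.48.

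By role, the counts were small and uneven. In 143B shMETTL14, 6 of 8 sites of complex IV assembly genes and 7 of 14 TIMM sites were gained, against 4 of 30 MRPL sites and 4 of 22 MRPS sites, with 32.0% over all genes. No TIMM site of 143B NC was lost (0 of 7), and 2 of 23 MRPS sites were, with 24.5% over all genes. In U2OS the lost sites were spread over 6 of 24 MRPL, 7 of 23 MRPS, 5 of 17 complex I subunit and 2 of 7 TIMM sites, all near the 31.1% over all genes. The 6 complex IV assembly sites were on COX10 and COX15, which make heme A, and on COX18 and COX20, so they are not independent of each other. Differences between roles were not tested.

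A loss in both lines was seen at 1 place. MRPL43, a large-subunit protein, had a 3' UTR site in U2OS NC (chromosome 10, 102746037 to 102746244, minus strand, fold 4.81, p-value 2.7e-05) and in 143B NC (102746031 to 102746240, fold 2.68, p-value 9.3e-08), each listed on 4 isoforms. Neither shMETTL14 list held a peak on the gene. It was 1 of 155 loci (0.645%), against 1.93% of all loci. No locus of these genes was gained in both lines (0 of 155, exact upper limit 2.35%), against 2.26% of all loci.

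Counted as loci, presence in both lines was near that of all genes, but counted from U2OS sites it was above it. Of the 155 loci, 82 were in at least 1 list of each line (52.9%, interval 44.7 to 61.0), against 50.7% of all loci. In all 4 lists were 56 (36.1%, interval 28.6 to 44.2), against 30.2% of all loci, and 58 were in 1 list. With every list cut to peaks at or above its median fold, the share in all 4 lists was 14.5%, below the 19.0% of all loci. Loci in the 143B lists alone numbered 56 (36.1%, all genes 29.8%), and those in the U2OS lists alone 17 (11%, all genes 19.5%, above the upper limit of 17%). Of the U2OS NC sites, 72 of 92 also stood in 143B NC (78.3%, 68.4 to 86.2), against 65.8% of all U2OS NC sites. With both lists cut at their median fold this turned to 53.1%, against 54.9%. With shMETTL14 and all peaks it was 74 of 82 U2OS sites (90.2%, 81.7 to 95.7), against 75.1%. Read from 143B the shares were 64.6% with NC and 57.3% with shMETTL14, against 63.2% and 59.9%. The 143B lists thus held most U2OS sites of these genes and others besides.

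As genes, 55 of the 114 had a peak in all 4 lists (48.2%), against 51.0% of all genes. In both 143B lists and neither U2OS list stood 10 genes (8.77%, all genes 7.28%), among them COX6B1, COX6C, COX18 and TOMM70A, an import receptor. The 11 genes missing in U2OS shMETTL14 alone (9.65%, all genes 4.77%) included COX10, MRPL4, MRPL44, NDUFA5, NDUFAF5 and UQCR10. The 7 missing in U2OS NC alone (6.14%, all genes 3.68%) were MRPL46, MRPS35, NDUFAF1, NDUFAF7, TIMM13, TIMM22 and TOMM40. No gene was missing in 143B shMETTL14 alone (all genes 1.99%), and MRPL30 and SDHAF2 were missing in 143B NC alone (1.75%, all genes 3.01%). Genes in 143B shMETTL14 only numbered 11 (9.65%, all genes 6.05%), among them COX15, NDUFA4, NDUFA10 and NDUFB3, and those in 143B NC only 9 (7.89%, all genes 4.67%). In U2OS shMETTL14 only stood MRPL22, MRPL47, NDUFV2 and TIMM21 (3.51%, all genes 2.88%), and in U2OS NC only MRPS14 and TIMM8B (1.75%, all genes 4.27%). These differences from all genes were not tested.

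Partners of these genes that carry other names are given beside the same backgrounds: 31.1% lost and 24.9% gained in U2OS, and 24.5% lost and 32.0% gained in 143B. Of 26 further mitoribosome proteins and translation factors, 21 had a peak. In U2OS 4 of their 20 sites were lost and 5 of 21 gained, and in 143B 2 of 20 were lost and 10 of 28 gained. MTFMT, which formylates the initiator methionyl-tRNA, had highest site folds of 14.1, 29.4, 17 and 33.2 in the 4 lists, and TSFM, an elongation factor, of 8.25, 5.04, 6.87 and 6.97. Of 43 respiratory assembly factors, 24 had a peak: 7 of 17 sites were lost and 5 of 15 gained in U2OS, and 8 of 28 and 7 of 25 in 143B. Of 33 import and quality-control genes, 19 had a peak: 3 of 23 and 3 of 25 in U2OS, and 6 of 29 and 11 of 33 in 143B. LONP1, the matrix protease, lost 3 of 5 sites in 143B and 0 of 2 in U2OS. MTFMT, TSFM and LONP1 are named after their values were seen.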

How the data were processed

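m6A peaks of 4 immunoprecipitated libraries were used, 1 list per group, grouped by the sample titles. Per the submitters' processing notes, reads were handled with FastQC 0.11.5, Trimmomatic and HISAT2 with human build hg19 (GRCh37). Which caller, cut-off and annotation made the peaks, the use of strand and the sequencing depth: not given in the sources used here. Per the file headers, each deposited peak has a p-value and a fold enrichment, a linear ratio made by the authors. No unit in the lists is a count.

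From these were computed sites, overlaps (at least 1 bp of spliced blocks, same strand) and exact Clopper-Pearson 95% intervals, with Python 3.11.15, numpy 2.4.6 and scipy 1.17.1, and figures with matplotlib 3.10.9. Overlap calls were tested on simulated data. Members and gene lists were chosen with earlier results of these data known. Genes named are, per line, the 8 lost and 8 gained by fold, those lost or gained in both lines, the 8 with the best mean fold percentile, the 5 with most sites, and METTL14; others are named as chosen later. Gene names were matched to RefSeq (GRCh38.p14), 106 by symbol and 8 by synonym, for names only. Alternatives changed the overlap, the unit, the members and the peaks used. No nucleotide sequence is shown, because an hg19 genome was not used here.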

Additional observations from a re-analysis of the deposited data

Results flagged for a closer look

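The lines differed in the direction of their list sizes. Sites of the mitochondrial genes with shMETTL14 numbered 0.891 times the NC sites in U2OS and 1.10 times in 143B. Genes with a peak were 0.945 and 1.04 times, and deposited peaks 0.904 and 1.05 times. The difference between the lines was not tested, since each ratio rests on 1 list per group, and the lists over all genes moved the same way.

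TIMM17A, a core subunit of the presequence translocase, had calls in opposite directions at an overlapping coding-sequence place on chromosome 1. In U2OS the site at 201926655 to 201932755 was lost, at a fold of 1.60 and a p-value of 0.0032. In 143B the site at 201926465 to 201926684 was gained, at a fold of 1.38 and a p-value of 0.0013. This difference was not tested, and both p-values are above the list medians. Of 155 loci, 1 (0.645%) stood in U2OS NC and 143B shMETTL14 alone, against 2.43% of all loci. In U2OS shMETTL14 and 143B NC alone stood 0 of 155, against 1.05%.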

How the results depend on the processing

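Of 53 lost, gained and shared-site shares recomputed under other settings, 42 stayed inside the reported interval and 11 moved, and of 19 shares by position or in all 4 lists, 14 stayed inside. When 50% of each peak had to overlap, gained sites rose to 30.5% in U2OS and 37.1% in 143B and lost sites to 31.0% in 143B, and U2OS NC sites also in 143B NC fell to 63.0%. With both lists cut to peaks at or above their median fold, lost and gained shares were 37.5% and 27.6% in U2OS and 38.9% and 47.4% in 143B. Under the same cut 53.1% of U2OS NC sites stood in 143B NC (all genes 54.9%). As genes 14.4% were gained in 143B, and as deposited peaks 86.4% of U2OS NC peaks stood in 143B NC. The lost or gained share was below that over all genes in 42 of 48 settings. The exceptions were U2OS by genes, U2OS at p-values up to the NC median and 143B above the median fold. At these p-values the U2OS shares were 30.4% against 23.2% lost and 20% against 18.9% gained. Above the median fold the 143B shares were 38.9% against 37.7% lost and 47.4% against 42.9% gained. In these p-value and fold settings both lists were cut, so a partner outside the cut no longer counted. With partners from the full list, 2 of 50 U2OS sites at or below the list's median p-value were lost (4%, all genes 7.99%), and 0 of 43 gained (all genes 5.36%). The share at the stop codon or in the 3' UTR was above all genes in 16 of 16 settings. Loci in all 4 lists were 14.5% above the median fold, against 19.0% of all loci. No paired analysis was possible because each group has 1 list, and for the same reason no replicate could be left out. The share of sites with a sequence motif was planned and not run. Depth is unknown, so a peak missing from a list may lie under its threshold.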

Other observations

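The regulators of mitochondrial DNA and biogenesis, a list of 26 genes of which 21 had a peak, had a larger share of lost and gained sites than the genes of the report. In U2OS 11 of 24 sites were lost (45.8%, interval 25.6 to 67.2) and 7 of 22 gained (31.8%, 13.9 to 54.9), and in 143B 12 of 33 were lost (36.4%, 20.4 to 54.9) and 15 of 35 gained (42.9%, 26.3 to 60.6). Over all genes these shares were 31.1%, 24.9%, 24.5% and 32.0%, inside the interval each time. PPARGC1B, a coactivator of mitochondrial biogenesis, had 2 sites in U2OS NC and 0 with shMETTL14, and 5 and 8 sites in 143B, where 2 were lost and 5 gained. ESRRA, a nuclear receptor of the same pathway, had 1 site in each NC list (folds 12.8 and 3.45) and none with shMETTL14 in either line. TFAM, which packages mitochondrial DNA, had no site in U2OS NC and in 143B shMETTL14, and 1 in each of the other lists (folds 1.58 and 5.22). These genes were chosen after their values were seen, and no difference was tested.

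The respiratory subunits that mitochondria encode themselves had sites in every list. Each list held 14 sites on 13 genes of the mitochondrial chromosome, none lost or gained in either line. Over all genes 31.1% of sites were lost and 24.9% gained in U2OS, and 24.5% and 32.0% in 143B. Presence in a list does not measure whether methylation changed. Their median fold was 7.04 and 7.12 in U2OS NC and shMETTL14 and 6.38 and 8.15 in 143B NC and shMETTL14, above the median of the nuclear-encoded genes in each list.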
